A study of Mus musculus with 9 samples.

Results

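The Notch genes of regenerating muscle described here were 10 of the 54532 genes in the deposited table of read counts, taken by their Ensembl identifiers. They comprised the ligands Dll1, Jag1 and Jag2, the receptors Notch1, Notch2 and Notch3, the DNA-binding partner Rbpj, and the target genes Hes1, Hey1 and Heyl. All 10 were counted in every library and passed the filter on low counts in each comparison.

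Notch receptors are cut when a ligand on a neighbouring cell binds them, and the freed intracellular part joins RBPJ on DNA and turns on genes of the Hes and Hey families. In muscle, the pathway is known for keeping satellite cells, the stem cells of the fibre, quiescent and for holding back their differentiation into fibres. Notch3 and Heyl are also known from the mural cells of blood vessels, and Notch1 and Jag1 from endothelium, so in tissue RNA the genes cannot be assigned to one cell type.

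C57/BL6J mice of every group received an injection of barium chloride into the muscle, a chemical that destroys fibres and starts regeneration. The muscle was then injected with phosphate-buffered saline (PBS) or, in 1 group, with recombinant METRNL (rMETRNL), the secreted protein meteorin-like. The groups were young PBS (4 months in the study's text, with a lower bound of 3 months in its methods), old PBS (24 months, with an upper bound of 26 months) and old rMETRNL (of the same age as old PBS), each with 3 libraries. The series description gives collection at day 4 and the study's text day 8, and the labels call the RNA source a suspension of cells from damaged muscle where the study's text describes extracts of whole muscle. The dose of rMETRNL is given both as 0.1 ug and as 0.1 ng, in 3 injections. The labels do not say whether each library came from a separate mouse, so the tests measure the spread between these libraries. Because the RNA came from mixed cells in either case, fewer cells of a type and less RNA per cell cannot be told apart.

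The libraries held 16238700 to 22522560 counts, and 3 counts, the limit that a count of 0 allows, corresponded to 0.132 to 0.199 CPM (counts scaled to a common library size with TMM factors, also called counts-per-million). No pair of replicates agreed within counting error (chi-square of their counts from 10.9 to 169 for each degree of freedom), and old PBS 3 and old PBS 4 were the pair farthest apart. These libraries were far apart in 6 genes of new fibres (Myh3, Myh8, Tnnt2, Actc1, Mymk and Mymx), whose summed level was 1179 CPM in old PBS 2, 4579 in old PBS 3 and 558 in old PBS 4, against 1532 to 2117 in the other 6 libraries. All 10 brain markers, among them Mobp and Snap25, were detected in the 3 old PBS libraries, summing to 199, 65.5 and 216 CPM in old PBS 2, 3 and 4, against 42.6 to 78.8 elsewhere, where 3 to 5 of them were at 0. Most of the sum elsewhere was Aqp4, at 37.0 to 70.2 CPM, which was at 49.8, 9.52 and 54.1 CPM in old PBS 2, 3 and 4. Mobp was at 31.1, 11.5 and 41.7 CPM and Slc1a2 at 30.3, 21.2 and 17.7 CPM there, against at most 0 and 0.555 CPM elsewhere. The 8 liver markers summed to 98.3, 36.7 and 29.6 CPM in the same libraries and to 1.81 to 13.5 elsewhere. Of these sums Cyp2e1 made up 14.9, 5.44 and 20.7 CPM in old PBS 2, 3 and 4 and 1.70 to 13.1 CPM elsewhere. Alb was at 63.3, 22.3 and 1.57 CPM in old PBS 2, 3 and 4 and at most 0.161 CPM elsewhere. Lists of other cells summed, in old PBS and elsewhere, to 1238 to 1853 and 1774 to 2206 CPM for macrophages, 26.9 to 33.8 and 36.8 to 48.3 CPM for arterial endothelium, and 1542 to 2213 and 1694 to 2696 CPM for fibro-adipogenic progenitors. They summed to 14.7 to 18.4 and 9.62 to 17.5 CPM for T and B cells, 71.7 to 113 and 65.0 to 92.7 CPM for Schwann cells, and 185 to 302 and 175 to 213 CPM for genes of dissociation. The 9 satellite and myogenic cell markers summed to 3823 to 4693 and 3545 to 4368 CPM, most of it Des, and the 8 without Des to 102, 212 and 80.6 CPM in old PBS 2, 3 and 4 and 144 to 199 CPM elsewhere. Markers of mature fibres summed to 69944 to 119591 and 92946 to 111263 CPM. The muscle markers Des, Myod1 and Myog were present in every library. The part of these differences in the Notch results was not tested.

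Per length of exon (FPKM, the CPM divided by kilobases of exon), Hes1 had the highest and Notch1 the lowest mean level of the 10 genes in each group. In young PBS the order of mean FPKM was Hes1 7.81 ± 0.48 (SD, n = 3), Jag2 7.31 ± 0.16, Notch3 7.03 ± 1.32, Rbpj 5.25 ± 0.29, Notch2 5.20 ± 1.56, Heyl 4.44 ± 0.40, Jag1 3.55 ± 0.20, Dll1 2.97 ± 0.27, Hey1 2.59 ± 0.43 and Notch1 1.75 ± 0.60. Of neighbours in this order, the intervals of mean ± SD did not overlap between Notch3 and Rbpj, between Heyl and Jag1 and between Jag1 and Dll1, and they overlapped in the other pairs. In old PBS only Rbpj and Jag1 were apart in this way, and Heyl stood at 2.71 ± 1.44 FPKM, beside Dll1 at 2.69 ± 0.91. The old rMETRNL order was that of young PBS except that Notch2 (5.34 ± 0.76 FPKM) stood before Rbpj (4.99 ± 0.36 FPKM). The exon lengths join all annotated exons of a gene, so a level is too low where mainly short transcripts are made.

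**Figure D1:**
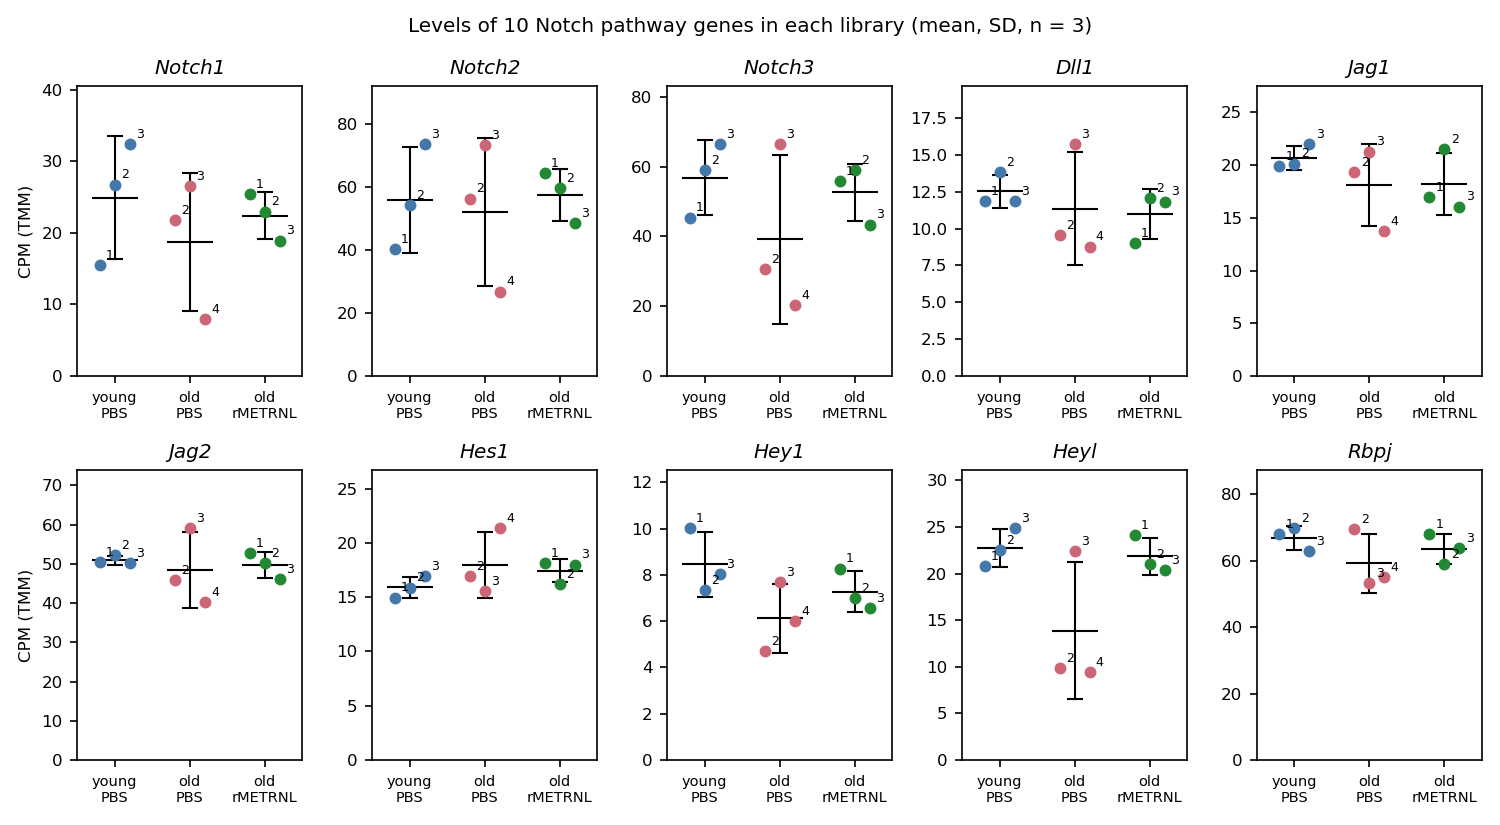
Level of each Notch gene in the 9 libraries, in CPM on the y axis (starting at 0), for young PBS, old PBS and old rMETRNL on the x axis. Each point is a library labelled with its number, the horizontal line is the group mean and the bar the SD (n = 3). Old PBS 2 and 4 lie below all other libraries for Notch3, Hey1 and Heyl, while for Hey1 and Heyl old PBS 3 lies among the libraries of the other groups.

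The first comparison, old PBS with young PBS, asks how the Notch genes differ with age in injured muscle. Of the 10 genes, 9 had a negative log2 fold change (median -0.17, against 0.014 over all genes tested) and 1 a positive one, where 52.1% of all genes were positive, and none passed the test (edgeR quasi-likelihood test with Benjamini-Hochberg adjustment over 15560 genes). With each library left out in turn, 6 to 9 of the 10 were negative, the fewest without old PBS 4 (median -0.023). With the replicate number as a block, 8 were negative (median -0.078). The largest differences were those of Heyl, at -0.70 on the log2 scale, and Notch3, at -0.53, and both rested on 2 of the 3 old PBS libraries. The second comparison, old rMETRNL with old PBS, asks what the protein did in old muscle. There 7 of the 10 genes had a positive log2 fold change, where 49.3% of all genes were positive, with a median of 0.11 against -0.0056 over all 15682 genes tested, and none passed. With each library left out, 5 to 9 were positive, 5 without old PBS 4 (median -0.042) and 9 without old PBS 3. With the replicate number as a block, 4 were positive. Both comparisons use the same old PBS libraries, so opposite signs in them are not independent. In old rMETRNL against young PBS, 8 of 10 log2 fold changes were negative (50.2% of all genes were positive), the 10 values lay between -0.22 and 0.13, and none passed.

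Few genes of the whole table passed either, since 0.0643% of the genes tested were called higher and 0% lower in old PBS against young PBS. In old rMETRNL against old PBS the shares were 0% higher and 0.108% lower, and in old rMETRNL against young PBS 0% in both directions. At an unadjusted p under 0.05 edgeR called 0 of the 10 genes in each comparison, where 5.91%, 8.07% and 2.41% of all genes tested fell in the same order. DESeq2 called 0 of the 10 in each comparison after adjustment, and 1 before it, Heyl in the age comparison (unadjusted p = 0.0351 from DESeq2). In no comparison were 2 groups of libraries without overlap for any of the 10 genes. Over all genes, groups without overlap made up 5.06% (higher) and 5.49% (lower) in the age comparison, 7.19% and 5.38% in old rMETRNL against old PBS, and 3.91% and 2.88% in old rMETRNL against young PBS.

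**Figure D2:**
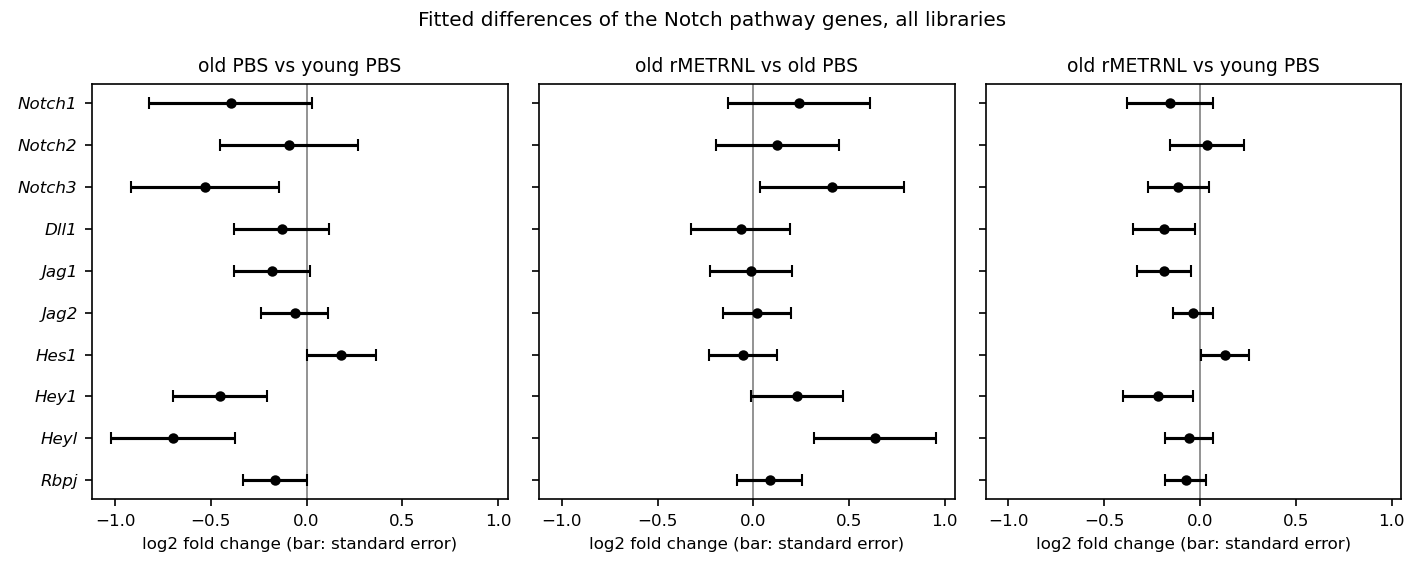
Fitted log2 fold change of each Notch gene (x axis) in the 3 comparisons, from edgeR on 6 libraries each. Points are estimates and bars are 1 standard error. The values run from -0.70 to 0.18 in old PBS against young PBS, from -0.066 to 0.63 in old rMETRNL against old PBS and from -0.22 to 0.13 in old rMETRNL against young PBS, and no gene passed the test.

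Among the ligands, Dll1 (ENSMUSG00000014773, chr17:15367354-15376872 of GRCm38, minus strand) encodes Delta-like 1, which activates Notch on neighbouring cells and is made by committed myogenic cells. Its levels were 11.9, 13.8 and 11.9 CPM in young PBS, 9.54, 15.7 and 8.77 CPM in old PBS 2, 3 and 4, and 9.02, 12.1 and 11.8 CPM in old rMETRNL. Old PBS held both the highest and the lowest of the 9 values. The log2 fold change was -0.13 ± 0.25 (SE, adjusted p = 0.994) with age and -0.066 ± 0.26 (adjusted p = 0.965) with rMETRNL. A noncoding gene on the other strand, A930024N18Rik, overlaps Dll1 and had 7 to 57 counts, and without a known strand setting reads of the overlap cannot be told apart.

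Jag1 (ENSMUSG00000027276, chr2:137081456-137116644, minus strand), a ligand of the Jagged type, had 19.9, 20.1 and 21.999 CPM in young PBS, 19.3, 21.3 and 13.7 CPM in old PBS, and 17.0, 21.5 and 16.1 CPM in old rMETRNL. Only old PBS 4 stood well below the rest. Jag2 (ENSMUSG00000002799, chr12:112907819-112929776, minus strand), the other Jagged ligand, was the steadiest gene within young PBS, at 50.3, 52.2 and 50.2 CPM. It had 45.9, 59.1 and 40.3 CPM in old PBS and 52.6, 50.1 and 46.2 CPM in old rMETRNL, with old PBS 3 highest and old PBS 4 lowest of all 9. The log2 fold changes with age were -0.18 ± 0.20 (SE) for Jag1 and -0.063 ± 0.17 for Jag2, and those with rMETRNL -0.011 ± 0.21 and 0.021 ± 0.18, none of which passed.

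Before any correction for exon length, the receptors varied most between libraries. Notch1 spanned 2.01 on the log2 scale from its lowest to its highest library, Notch3 1.71 and Notch2 1.46, against a median of 0.943 over all genes kept. Across the 9 libraries Pearson's r of log2 CPM was 0.964 between Notch1 and Notch2, 0.872 between Notch1 and Notch3 and 0.84 between Notch2 and Notch3, against 0.30, 0.11 and 0.0905 between Rbpj and the same receptors, as a description of libraries that share their groups and cell mixture. Moving together was not particular to the receptors. With the 3 of them, r was 0.75 to 0.78 for Jag1, 0.762 to 0.886 for Jag2 and 0.638 to 0.931 for Heyl. It was 0.474 to 0.70 for Dll1, 0.172 to 0.60 for Hey1 and -0.704 to -0.553 for Hes1. The windows before the RefSeq starts (GRCm38.p6) of the 3 receptors are printed beside that of Rbpj. Of each window of 250 bases, the part outside GENCODE exons of the gene is shown, 5′ to 3′ on the gene's strand. They are 248 bases for Notch1 (chr2:26503825-26504072, minus strand), 239 for Notch2 (chr3:98013288-98013526, plus strand), 250 for Notch3 (chr17:32166891-32167140, minus strand) and 118 for 1 of the 2 starts of Rbpj (chr5:53590096-53590213, plus strand). Capitals mark TGGGAA, the core letters bound by RBPJ, and CACGTG or CACGCG, boxes bound by Hes and Hey proteins, on either strand (as TTCCCA or CGCGTG on the other).
Notch1: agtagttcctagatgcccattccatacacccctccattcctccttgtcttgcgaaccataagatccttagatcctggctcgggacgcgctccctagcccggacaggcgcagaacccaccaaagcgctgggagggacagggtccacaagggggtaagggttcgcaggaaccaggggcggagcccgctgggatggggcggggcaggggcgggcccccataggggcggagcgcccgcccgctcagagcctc
Notch2: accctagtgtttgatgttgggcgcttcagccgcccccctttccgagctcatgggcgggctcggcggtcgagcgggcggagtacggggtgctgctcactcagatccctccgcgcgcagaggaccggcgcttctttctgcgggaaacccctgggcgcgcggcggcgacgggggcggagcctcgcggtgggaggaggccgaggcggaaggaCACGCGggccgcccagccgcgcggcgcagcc
Notch3: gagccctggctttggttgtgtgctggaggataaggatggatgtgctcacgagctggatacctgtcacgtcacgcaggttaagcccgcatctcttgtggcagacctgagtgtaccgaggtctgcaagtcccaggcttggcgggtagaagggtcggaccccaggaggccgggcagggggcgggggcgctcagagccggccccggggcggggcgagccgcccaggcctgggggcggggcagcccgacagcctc
Rbpj: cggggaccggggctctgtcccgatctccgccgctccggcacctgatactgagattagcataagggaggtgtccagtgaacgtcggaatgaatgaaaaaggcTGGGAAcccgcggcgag
Windows were found for 7 of the 10 genes, not for Hes1, Hey1 and Heyl. In the full 250 bases, TGGGAA or its reverse complement was found only before Rbpj, 149 and 65 bases before 1 start and 205 bases before the other. CACGCG or its reverse complement was found before Notch2 (42 bases before the start), Dll1 (68 bases, at 1 of its 2 starts) and Jag1 (171 and 249 bases). Of 32851 RefSeq windows of this length, 21.6% held TGGGAA and 12.9% held CACGTG or CACGCG on either strand, so such matches are common and are given as a description of the letters.

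Notch1 (ENSMUSG00000026923, chr2:26457903-26516663, minus strand) encodes a receptor found on satellite cells and endothelium. It had 15.5, 26.7 and 32.4 CPM in young PBS 1, 2 and 3, 21.7, 26.5 and 7.96 CPM in old PBS 2, 3 and 4, and 25.4, 22.9 and 18.9 CPM in old rMETRNL. Old PBS 4 was lowest and young PBS 1 next, so the spread lay within the groups. The log2 fold change was -0.40 ± 0.43 (SE) with age (adjusted p = 0.994), 0.24 ± 0.37 with rMETRNL in old muscle (adjusted p = 0.885) and -0.15 ± 0.22 for old rMETRNL against young PBS (adjusted p = 0.9996). Without old PBS 4, the first was -0.033 and the second -0.14.

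Notch2 (ENSMUSG00000027878, chr3:98013527-98150361, plus strand), a close relative of Notch1, had 40.3, 54.2 and 73.7 CPM in young PBS, 56.4, 73.4 and 26.8 CPM in old PBS and 64.5, 59.8 and 48.5 CPM in old rMETRNL. The same pair of libraries, old PBS 4 and young PBS 1, was lowest. The group means of 56.1 ± 16.8 CPM (SD, n = 3) in young PBS, 52.2 ± 23.6 in old PBS and 57.6 ± 8.21 in old rMETRNL differed by less than their spread. The log2 fold change with age was -0.093 ± 0.36 (SE) and 0.22 without old PBS 4.

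Notch3 (ENSMUSG00000038146, chr17:32120820-32166852, minus strand), a receptor of mural cells and of satellite cells, had 45.4, 58.9 and 66.3 CPM in young PBS. It had 30.7, 66.5 and 20.3 CPM in old PBS 2, 3 and 4, and 55.8, 58.9 and 43.4 CPM in old rMETRNL. Old PBS 2 and 4 were the lowest of the 9 libraries, and old PBS 3 was level with the highest young library, so old PBS overlapped both other groups. With age the log2 fold change was -0.53 ± 0.39 (SE, adjusted p = 0.994) and with rMETRNL 0.41 ± 0.38 (adjusted p = 0.796), and old rMETRNL against young PBS gave -0.11 ± 0.16 (adjusted p = 0.9996). The 9 mural markers, among them Rgs5 and Abcc9, were present in every library and summed to 901 to 1001 CPM in young PBS, 760 to 1022 in old PBS and 850 to 990 in old rMETRNL. The sum was highest in old PBS 2 (1022 CPM), where Notch3 was low, and was 876 CPM in old PBS 3 and 760 CPM in old PBS 4. Gene by gene, 4 of the 9 (Pdgfrb, Cspg4, Acta2 and Mcam) were lower in both old PBS 2 and 4 than in all 7 other libraries. The other 5, with Rgs5 and Abcc9, were not. The share of all genes lower in both libraries was not computed, so this count is a description only. The part of mural cells in the Notch3 values was not tested.

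Rbpj (ENSMUSG00000039191, chr5:53466152-53657362, plus strand), whose protein carries the receptor fragment to DNA, had the narrowest span of the 10 genes before any correction for exon length. It spanned 0.39 on the log2 scale over all 9 libraries, and 0.57 with the exon length trend removed, wider than Jag1, Jag2 and Hes1 then were. Its levels were 68.0, 69.9 and 62.8 CPM in young PBS, 69.4, 53.2 and 55.1 CPM in old PBS and 68.0, 58.9 and 63.7 CPM in old rMETRNL. Here old PBS 3 was lowest, unlike in the receptors. The log2 fold change was -0.17 ± 0.17 (SE) with age and 0.086 ± 0.17 with rMETRNL, and neither passed (adjusted p = 0.994 and 0.916).

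Among the targets, Hes1 (ENSMUSG00000022528, chr16:30064384-30067796, plus strand) encodes a repressor that answers to Notch and to other signals. It was the only 1 of the 10 genes with a positive log2 fold change in old PBS against young PBS, at 0.18 ± 0.18 (SE, adjusted p = 0.994). Its levels were 14.9, 15.9 and 16.9 CPM in young PBS, 17.0, 15.5 and 21.4 CPM in old PBS, and 18.1, 16.2 and 18.0 CPM in old rMETRNL. Old PBS 4, the lowest library for 7 of the other genes (the 3 ligands, the 3 receptors and Heyl), was the highest for Hes1.

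Hey1 (ENSMUSG00000040289, chr3:8663359-8667256, minus strand), a target that with Heyl is needed to keep satellite cells, had the fewest counts of the 10 genes, 71 to 175 a library. It had 10.02, 7.32 and 8.03 CPM in young PBS, 4.70, 7.67 and 6.01 CPM in old PBS 2, 3 and 4, and 8.26, 7.01 and 6.56 CPM in old rMETRNL. Old PBS 2 and 4 were the lowest 2 libraries. The log2 fold change was -0.45 ± 0.25 (SE, adjusted p = 0.959) with age and 0.23 ± 0.24 (adjusted p = 0.823) with rMETRNL.

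Heyl (ENSMUSG00000032744, chr4:123233556-123249875, plus strand), a target of Notch3 signalling in vessels and of Notch in satellite cells, showed the largest differences of the 10 genes. It had 20.8, 22.5 and 24.9 CPM in young PBS, 9.87, 22.4 and 9.40 CPM in old PBS 2, 3 and 4, and 24.1, 21.02 and 20.4 CPM in old rMETRNL. The 6 libraries of young PBS and old rMETRNL lay close together, old PBS 3 lay among them, and old PBS 2 and 4 lay far below. The log2 fold change was -0.70 ± 0.32 (SE, adjusted p = 0.874) with age, 0.63 ± 0.32 (adjusted p = 0.664) with rMETRNL in old muscle, and -0.059 ± 0.12 (adjusted p = 0.9996) for old rMETRNL against young PBS. Heyl followed Notch3 across the 9 libraries (Pearson's r = 0.931 of log2 CPM, as a description).

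The result for Heyl and Notch3 turned on old PBS 3. Without that library Heyl passed in both comparisons, at -1.23 ± 0.18 (log2, SE, adjusted p = 0.0174) with age and 1.16 ± 0.18 (adjusted p = 0.00728) with rMETRNL. Notch3 reached -1.14 ± 0.24 (adjusted p = 0.0502) with age, just over the threshold of 0.05, and 1.03 ± 0.22 (adjusted p = 0.0215) with rMETRNL, under it. The other 8 genes passed in neither comparison. At an unadjusted p under 0.05, edgeR then called 4 of the 10 genes with age and 2 with rMETRNL, where 20.9% and 27.6% of all genes tested were called. Without old PBS 3 more of the whole table passed as well, 1.82% of genes higher and 0.705% lower with age, and 3.78% higher and 5.98% lower with rMETRNL. Each library was left out in turn, old PBS 3 is singled out after its values were seen, and without it the group held 2 libraries.

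Leaving out old PBS 4 instead moved the values the other way, to -0.48 for Heyl and -0.22 for Notch3 with age, and to 0.40 and 0.090 with rMETRNL. Old PBS 3 was the library with most RNA of new fibres, and old PBS 2 and 4, low in Heyl, Notch3 and Hey1, had the highest sums of brain markers. Of the 9 satellite and myogenic cell markers, 4 (Pax7, Myog, Cdh15 and Msc) were lower in both old PBS 2 and 4 than in all 7 other libraries, and the other 5, among them Des, Myf5 and Myod1, were not. Pax7, the defining gene of satellite cells, was at 6.89, 12.8 and 3.26 CPM in old PBS 2, 3 and 4 against 8.51 to 11.5 CPM elsewhere, and Myog, a gene of differentiating myoblasts, at 29.2, 87.3 and 17.0 CPM against 60.6 to 96.7 CPM. Endothelial markers (10 genes) summed to 469, 530 and 376 CPM against 526 to 690 elsewhere. Of these 10, 6 were lower in both old PBS 2 and 4 than in all 7 other libraries, as were 8 of 9 macrophage markers. These 2 libraries were set apart after their Notch values were seen. The share of all genes lower in both was not computed, so the marker counts are a description only. The part of satellite, endothelial and macrophage cells in the Heyl and Notch3 values was not tested.

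**Figure D3:**
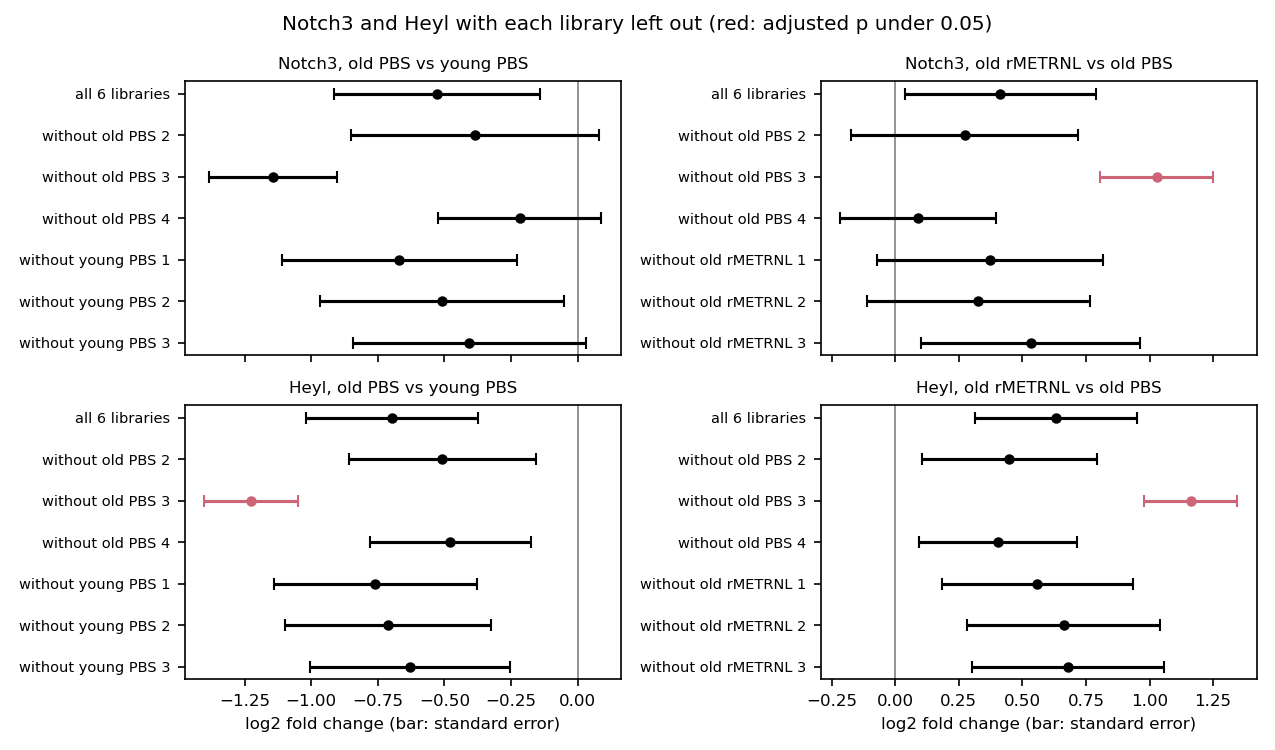
Fitted log2 fold change (x axis, bars 1 standard error) of Notch3 and Heyl in old PBS against young PBS and in old rMETRNL against old PBS, with all 6 libraries and with each library left out in turn. Red marks an adjusted p under 0.05. Without old PBS 3, Heyl moved from -0.70 to -1.23 with age and from 0.63 to 1.16 with rMETRNL, and without any other library neither gene passed.

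A second pattern concerned the long genes. The median level of genes with 8 kb of exon or more, less that of genes under 2 kb, was lowest in old PBS 4 (-0.46 on the log2 scale relative to the mean of the 9 libraries) and young PBS 1 (-0.25), and highest in old PBS 2 (0.28) and young PBS 3 (0.21). Notch1 (14.2 kb of exon) and Notch2 (10.8 kb) were lowest in those first 2 libraries, with Notch1 at -1.36 and -0.41 and Notch2 at -0.98 and -0.40 relative to their means. In young PBS 3, Notch1, Notch2 and Notch3 (8.09 kb) were at 0.65, 0.47 and 0.51. In old PBS 2, where long genes were highest, they were at 0.07, 0.09 and -0.60. Rbpj, with 12.8 kb, did not follow this order, at -0.19 in old PBS 4 and 0.11 in young PBS 1. Removing each library's trend of level on exon length shrank the span over libraries from 2.01 to 1.59 for Notch1, from 1.46 to 1.14 for Notch2 and from 1.71 to 1.48 for Notch3, and from 1.39 to 1.31 for Heyl (5.11 kb), which then spanned more than Notch2. It widened the span of Rbpj from 0.39 to 0.57. With the trend removed no member passed in any comparison with all libraries. With it removed and old PBS 3 left out, Notch3 passed with age (-1.10 ± 0.17, adjusted p = 0.0140) as did Heyl (-1.18 ± 0.16, adjusted p = 0.00703), and both passed with rMETRNL (adjusted p = 0.00814 and 0.00404). Over all genes, the fit without old PBS 3 then called 669 higher and 405 lower of 15884 with age. With rMETRNL it called 960 higher and 1568 lower of 15981. The fits with the trend removed, with and without old PBS 3, were added after the data were seen.

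**Figure D4:**
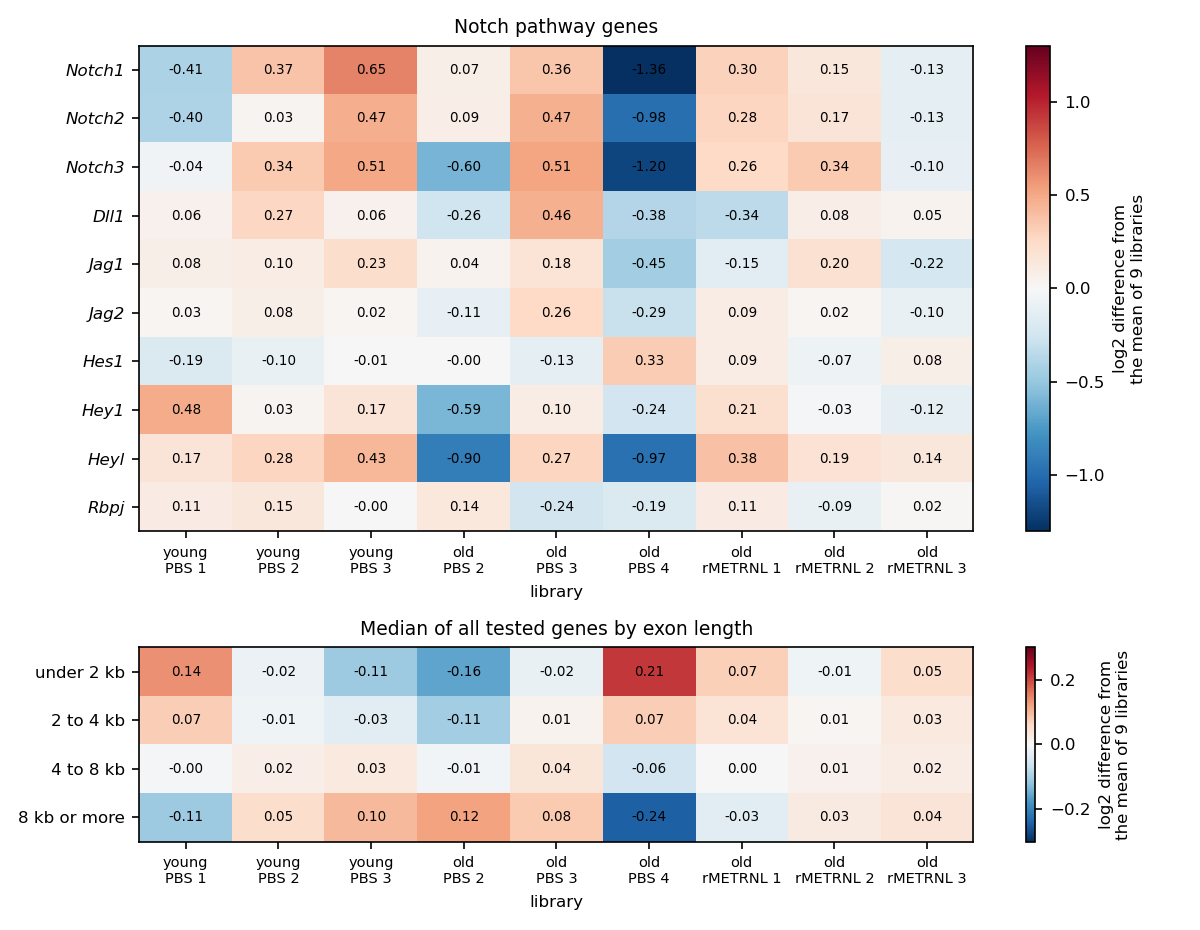
Difference of each library (columns) from the mean of the 9 libraries on the log2 scale, for the 10 Notch genes (upper panel, rows) and for the median of all genes kept, by exon length (lower panel, rows), with red above and blue below the mean. Old PBS 4 shows the lowest values for Notch1 (-1.36), Notch2 (-0.98), Notch3 (-1.20) and Heyl (-0.97) and the lowest median of genes with 8 kb or more (-0.24). Old PBS 2 is low for Heyl (-0.90), Notch3 (-0.60) and Hey1 (-0.59) but not for Notch1 (0.07) or Notch2 (0.09).

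The genes whose levels were most like each member's over the 9 libraries were found by Pearson's r of log2 CPM among the 16124 genes kept, as a description. The libraries share their group, their exon length trend and their cell mixture, and with 9 points the order of the top genes is loose. For Heyl they were Cdca7, a gene of dividing cells (r = 0.991), Meox1, a homeobox gene (0.989), and Pdgfrl (0.984). For Notch3 they were Tmem164 (0.993), Gga2 (0.992) and Tanc1 (0.992), for Notch1 Kntc1 (0.985) and Smc2 (0.981), and for Notch2 Sptan1 (0.992), Chd3 (0.987) and Itga1 (0.986). Ranked by Spearman's rho, 8 of the 10 members had other genes in the first 3 places, with at most 1 gene kept. The ligands were nearest to Afmid, Gm20045 and Stc2 for Dll1 (0.937 to 0.941), to Csnk1g1, Pgap1 and Sdk2 for Jag1 (0.942 to 0.951) and to Tctn1, Gm29291 and Sema6b for Jag2 (0.958 to 0.970). Hes1 was nearest to Churc1, Zfp623 and Aspa (0.916 to 0.947), Hey1 to Mpdu1, Bloc1s1 and Sppl3 (0.960 to 0.963), and Rbpj to Rnf123, Arhgef10l and Gm37499 (0.910 to 0.922).

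A wider list of 59 other pathway genes was tested in the same fits. None of the 51, 52 and 50 genes tested in old PBS against young PBS, old rMETRNL against old PBS and old rMETRNL against young PBS passed by edgeR, with 1, 4 and 0 of them at an unadjusted p under 0.05, where 5.91%, 8.07% and 2.41% of all genes tested fell. Groups without overlap were found with age for 1 gene higher (Dtx1, 1.96%) and 1 lower (1.96%), against 5.06% and 5.49% of all genes. With rMETRNL they were found for 5 higher (9.62%) and none lower, against 7.19% and 5.38%. The 5 were Dlk1, Dlk2, Maml2, Hdac1 and Numbl. Dtx1 (13 to 20 counts in old PBS, 9 to 11 in young PBS) passed the filter only in comparisons with old PBS. Dlk2 (11 to 14 counts in old rMETRNL, 1 to 11 in old PBS) passed it only in old rMETRNL against old PBS. Both are given as a description. The fourth receptor, Notch4 of endothelium, had 12.8 to 21.2 CPM in old PBS, 19.0 to 24.6 CPM in young PBS and 17.6 to 23.9 CPM in old rMETRNL (log2 fold change -0.37 ± 0.22, SE, with age).

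By role, the 10 genes of the proteases and gamma-secretase that cut the receptor had log2 fold changes from -0.21 to 0.12 with age and from -0.19 to 0.24 with rMETRNL. Of them 9 were negative with age and 8 positive with rMETRNL. The 10 corepressor genes ran from -0.28 to 0.046 with age, 7 of them negative, and from -0.12 to 0.41 with rMETRNL, 9 of them positive. Highest with rMETRNL was the deacetylase gene Hdac1 (0.41 ± 0.16, SE, adjusted p = 0.564). Over all genes tested, 52.1% were positive with age and 49.3% with rMETRNL, and both comparisons use the same old PBS libraries. The 7 coactivator genes ran from -0.24 to 0.37 with age, with the acetyltransferase gene Kat2b highest, and from -0.59, again Kat2b, to 0.22 with rMETRNL. The 5 glycosyltransferase genes, which modify the receptor and its choice of ligand, ran from -0.32 to 0.21 and from -0.22 to 0.61. Positive values were found for 3 of the 7 coactivator genes in each comparison. For the 5 glycosyltransferase genes they were 2 with age and 3 with rMETRNL. No group held a gene that passed.

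Among the genes of the list that passed edgeR's filter, a ligand-like gene and a ubiquitin ligase gene had the widest differences with age and with rMETRNL. Dlk1, an imprinted relative of the Delta ligands that is made in regenerating muscle, had 97.8, 30.2 and 49.8 CPM in young PBS, 11.6, 36.0 and 3.95 CPM in old PBS 2, 3 and 4, and 115, 75.5 and 37.4 CPM in old rMETRNL. Its log2 fold change was -1.77 ± 0.71 (SE, adjusted p = 0.772) with age and 2.12 ± 0.69 (adjusted p = 0.424) with rMETRNL, and both passed without old PBS 3 (-2.92 and 3.27, adjusted p = 0.0452 and 0.00799). Mib1, whose product ubiquitinates ligands so that they can be taken up and signal, went the other way, with 260, 75.6 and 157 CPM in old PBS against 74.9 to 96.0 CPM elsewhere. Its log2 fold changes were 0.87 ± 0.38 (adjusted p = 0.854) and -1.02 ± 0.38 (adjusted p = 0.527), and without old PBS 3 they were 1.21 and -1.36 (adjusted p = 0.0353 and 0.00751).

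The other genes of lowest p were, with age, Hdac1 (-0.28) on the lower side, and Dtx1 (0.77) and Kat2b (0.37) on the higher side. With rMETRNL they were Numbl (0.61), an inhibitor of the receptor, and Hdac1 (0.41) on the higher side, and Kat2b (-0.59) and Neurl1a (-0.45), a ubiquitin ligase gene, on the lower side. In old rMETRNL against young PBS they were Mfng (0.51), Dtx4 (0.20) and Aph1a (0.15), and Neurl1a (-0.27) and Fbxw7 (-0.18), all log2 fold changes that did not pass.

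Dner, a Notch ligand of neurons, was named outside the rule after its values were seen. It had 2.19, 0.219 and 5.51 CPM in old PBS 2, 3 and 4, and 0 to 0.232 CPM in the other libraries, too few counts for edgeR's filter with all libraries. These were 33, 5 and 88 counts in old PBS and 0 to 4 counts elsewhere, so that it could enter a test only through old PBS. DESeq2 called it higher with age and lower with rMETRNL, where 1.27% and 1.56% of genes with an adjusted p were called in those directions, and this is given as a description. It was high in the same 2 libraries that had the highest sums of brain markers. Dll3 was at 0 counts in all 9 libraries, and Hes5, a target used in the nervous system, had at most 3 counts in each.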

How the data were processed

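RNA of injured mouse muscle was sequenced in 9 libraries of 3 groups. Per the study's methods the libraries were NEBNext Ultra and paired-end, and the submitters' processing notes name STAR, featureCounts and mm9, while versions, annotation and strand setting are not given in the sources used here. The authors deposited raw counts per Ensembl gene, with replicates kept apart. Of 54532 identifiers 54409 matched GENCODE M21 on GRCm38, from which symbols, coordinates and exon lengths were taken, so coordinates are those of GRCm38 and not of the named build. 24310 genes had 0 counts everywhere. Promoter sequences are RefSeq's (GRCm38.p6).

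Groups were compared in pairs on 6 libraries with edgeR 4.0.16 in R 4.3.3 (filterByExpr, TMM, glmQLFit and glmQLFTest, Benjamini-Hochberg adjustment over all genes tested, threshold 0.05). The standard error is the log2 fold change divided by the square root of F. CPM used TMM factors of all 9 libraries, and log2 CPM a prior count of 2. Limits for a count of 0 cover counting error only.

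The members, the wider list, the marker lists and the tests were chosen with earlier results of these data known. The named genes are the members, of the wider list the 3 of lowest p in each direction of each comparison, and the 3 genes most like each member. Some genes that this rule names are not reported here. Genes named for a single library's values or for groups without overlap were chosen after these were seen. The 13 marker lists were those of satellite, mural, endothelial, arterial, fibro-adipogenic, macrophage, lymphoid, new fibre, mature fibre, brain, liver and Schwann cells and of dissociation. Alternatives were DESeq2 size factors, no filter, at least 10 counts in every library, DESeq2 1.42.0, 1 model over all 9 libraries, a block for the replicate number, leaving out each library, and, added after seeing the data, removal of the exon length trend (lowess, span 0.3). The fits were tested on simulated counts with 200 changed genes. For old PBS against young PBS (15560 genes), edgeR recovered 62 of 100 genes changed by 1 on the log2 scale and 99 of 100 changed by 2, with 5 false calls. The simulation gave every gene the same dispersion and changed only genes with higher counts. Apart from the changed genes, its libraries shared the same profile, with no exon length trend. The recovery therefore checks the fits and does not measure the power to find changes in these libraries.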

Additional observations from a re-analysis of the deposited data

How the results depend on the processing

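The count of Notch genes that passed stayed at 0 of 10 in each comparison with DESeq2 size factors, no filter, at least 10 counts in every library, DESeq2, a fit of all 9 libraries and the exon length trend removed. With each library left out in turn it ran from 0 to 1 in old PBS against young PBS, from 0 to 2 in old rMETRNL against old PBS and stayed at 0 in old rMETRNL against young PBS, and each value above 0 came without old PBS 3. With the exon length trend removed and without old PBS 3 it was 2 in the first comparison and 2 in the second. In the wider list the count of 0 became 2 and 3 without a filter in the first and second comparison, 1 and 1 with DESeq2, 0 to 3 and 0 to 6 with each library left out, and 5 and 8 with the exon length trend removed and without old PBS 3. Over all genes the higher and lower calls were 291 and 63 without a filter (28821 genes tested in place of 15560) and 238 and 27 with DESeq2 in the first comparison, 157 and 583 and then 43 and 311 in the second, and without a filter 40 and 92 in the third. With the exon length trend removed and without old PBS 3 they were 669 and 405 of 15884 genes in the first comparison. In the second they were 960 and 1568 of 15981. The cause of the other moves was not tested.

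With each library left out, the log2 fold change with age ran from -0.44 to 0.028 for Dll1, from -0.23 to 0.055 for Jag2 and from -0.42 to 0.22 for Notch2. With rMETRNL in old muscle it ran from -0.14 to 0.57 for Notch1, from -0.20 to 0.45 for Notch2, from -0.23 to 0.24 for Dll1, from -0.19 to 0.12 for Jag1, from -0.11 to 0.19 for Jag2 and from -0.15 to 0.076 for Hes1. In old rMETRNL against young PBS it ran from -0.41 to 0.080 for Notch1, from -0.16 to 0.28 for Notch2, from -0.26 to 0.012 for Notch3, from -0.081 to 0.015 for Jag2 and from -0.13 to 0.011 for Heyl. Without a filter Jag1 with rMETRNL was 0.0041. With the exon length trend removed and without old PBS 3, the values with rMETRNL were 0.20 for Dll1, 0.082 for Jag1 and -0.037 for Rbpj. Heyl, Notch3 and Hey1 kept their direction in both comparisons with old PBS under every alternative run.

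Libraries with the same number did not deviate together in every pair, with correlations from -0.32 to 0.41, so the numbers were not taken to pair the libraries. With the replicate number as a block 0 of 10 Notch genes and 0 of the wider list passed in each comparison. Over all genes the block gave 9 higher and 2 lower calls with age, against 10 and 0 without it, and 2 and 63 with rMETRNL, against 0 and 17. Old PBS, numbered from 2 to 4, shares 2 numbers with each other group. Under the block Notch2, Jag2 and Hes1 changed sign with age (0.035, 0.038 and -0.0041), and Notch1, Notch2, Jag2, Hes1 and Rbpj with rMETRNL (-0.23, -0.28, -0.13, 0.055 and -0.0072). Depth limited Hey1 most, at 71 to 175 counts.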
